A study of Caenorhabditis elegans with 10 samples.

Results

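The genes described here are the protein-coding genes of Caenorhabditis elegans whose symbol is math-, bath- or btb- followed by a number, and they are named for the MATH domain, the BTB domain or both. There are 90 of them among the 46756 genes of the count table, of which 37 are math genes, 36 are bath genes and 17 are btb genes. Membership was set by symbol and by gene type in the annotation. The counts of the genes did not decide which were members, but earlier results of these data were known when the family was chosen. RNA was measured in whole hermaphrodite larvae of the early first stage (L1), which hatched without food and were synchronous, in 5 libraries of pbrm-1(TS-KO) and 5 libraries of pbrm-1(control), numbered 1, 4, 5, 6 and 7 in each strain. The question asked of the data was which genes change when PBRM-1, a subunit of the chromatin remodeling complex PBAF, is removed from mesoderm.

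Both strains carry pbrm-1(rd31), an allele in which the gene is tagged with GFP and its last exons lie between loxP sites. In pbrm-1(TS-KO), strain RA678, the single-copy transgene rdIs74 drives a GFP nanobody fused to ZIF-1 together with Cre from the hnd-1 promoter, so that the exons are removed and the tagged protein is degraded. In pbrm-1(control), strain RA685, the transgene rdIs79 drives ZIF-1 alone from that promoter. The hnd-1 promoter acts in embryonic mesoderm, including body wall muscle and the precursors of the somatic gonad, and the gene is meant to stay intact in the other tissues of the TS-KO larvae. Some TS-KO larvae were seen by the study's authors to lack the tagged protein in all tissues, and their number in each library was not analysed here. In RNA from whole larvae, fewer cells of a type and less RNA per cell cannot be told apart.

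A MATH domain binds other proteins and a BTB domain forms dimers, and many BTB proteins also bind the cullin CUL-3. The bath products hold both domains. A protein built in this way can serve as the substrate adaptor of a ubiquitin ligase, with the MATH domain holding the substrate and the BTB domain holding CUL-3. In C. elegans the best known adaptor of this kind is MEL-26, which carries the katanin subunit MEI-1 to CUL-3 in the early embryo, and it lies outside the numbered symbols. MATH-33 is the worm counterpart of the deubiquitinase USP7, so a MATH domain also occurs in an enzyme that removes ubiquitin. Most of the numbered genes belong to expanded, clustered families in worms, and no role is given here for members other than MATH-33.

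The genes are grouped on the genome. Of the 90, 77 lie on chromosome II, 5 on I, 4 on III, 3 on V and 1 on IV (assembly WBcel235, Ensembl annotation). On chromosome II, 57 lie between positions 1023693 and 2155220, and a further 11 lie between 3295405 and 3378834. Another member was within 5000 bases of 60 of them. The longest coding sequence had a median of 1149 bases in math genes, 925.5 bases in bath genes and 894 bases in btb genes. Since only reads that mapped to 1 place were counted, reads from stretches that near-identical neighbours share are missing from the counts, and the likeness of the members in sequence was not measured. Exonic bases are shared with another protein-coding gene by 17 members, and these overlaps are given beside the members described in full. One member, bath-23, is listed as a pseudogene by RefSeq.

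Each library held between 35922561 and 46553938 counts in pbrm-1(TS-KO) and between 36354418 and 45126931 counts in pbrm-1(control). The count filter, which keeps genes with enough counts in as many libraries as a strain has, was passed by 16817 genes. Of these, edgeR's quasi-likelihood test called 1299 between the strains at a Benjamini-Hochberg adjusted p of at most 0.05. The pbrm-1 gene, part of which remains in TS-KO cells, was at 233 to 265 counts per 1000000 counts of the library (CPM) in TS-KO libraries and 224 to 286 CPM in control libraries, with an edgeR adjusted p of 0.433. The gene-level counts do not separate its deleted exons. In an exon-level comparison, the study's authors reported that most of the deleted exons were significantly lower in TS-KO. All 10 markers of L1 tissues were detected, as were low levels of other stages, with a sum of 3.78 to 5.21 CPM in TS-KO and 3.61 to 4.62 CPM in control libraries for 6 yolk genes and 8.0 to 13.2 CPM in TS-KO and 10.5 to 21.0 CPM in control libraries for 3 eggshell and oocyte genes. Of 3 sperm markers, msp-3 and msp-10 were listed at 0 in every library, and they belong to a family of near-identical genes whose shared reads were not counted. The epidermal gene dpy-7 reached 67.4 CPM in control replicate 5. The other control libraries held 1.74 to 6.18 CPM and the TS-KO libraries 1.71 to 3.09 CPM.

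The members were expressed at very different levels. Together they held 41612 to 56253 counts per library and 0.117% of all counts, and the 5 most abundant members held 49.2% of the counts of all members. None was at 0 over the 10 libraries together, and 73 had counts in every library. The filter was passed by 67 members, of which 21 were math, 32 were bath and 14 were btb genes. The 23 others had between 1 and 100 counts over all 10 libraries, and 16 of them were math genes. The sparse math genes are crowded in 1 stretch of chromosome II from math-15 to bath-2, where 18 members lie between 1866381 and 1922765 and 6 were tested.

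**Figure D1:**
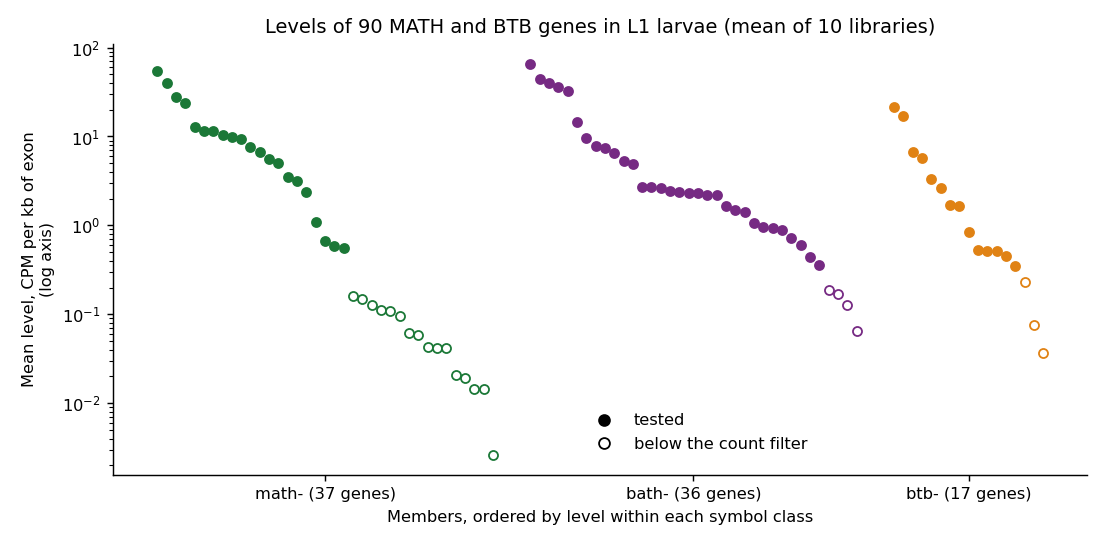
Mean level of each of the 90 genes over the 10 libraries, in CPM per kilobase of exon on a log axis, ordered by level within the math, bath and btb genes. Filled points are the 67 genes tested and open points the 23 below the count filter, and the highest point is bath-40 at 66.1 CPM per kilobase.

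Per kilobase of exon, the highest level was that of bath-40 on chromosome I, with a mean of 66.0 CPM per kilobase in TS-KO and 66.1 CPM per kilobase in control libraries. It was followed by math-33, on chromosome V, at 55.2 CPM per kilobase in TS-KO and 54.6 CPM per kilobase in control libraries. Next came bath-38 with 46.6 CPM per kilobase in TS-KO and 42.7 in control libraries, and math-41 with 41.1 CPM per kilobase in TS-KO and 39.7 in control libraries. bath-42 had 40.0 CPM per kilobase in TS-KO and 39.3 in control libraries, and bath-38, math-41 and bath-42 did not differ from the next in this order beyond their spread over the libraries. The plot of levels shows that each of the 3 symbol classes spans more than a factor of 10, so an abundant and a rare member can have the same kind of symbol.

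The 3 abundant members described next, math-33, bath-40 and bath-42, were close to equal in the strains. Of the 12 members above 20 CPM, 2 were called between the strains, math-26 and btb-16, against 10.1% of all genes above that level. The gene for the deubiquitinase MATH-33 (chromosome V, 11113907 to 11118824, plus strand) was at 223, 251, 221, 223 and 248 CPM in TS-KO replicates 1, 4, 5, 6 and 7 and at 221, 235, 242, 221 and 235 CPM in the control replicates of the same numbers. The strains overlapped almost entirely, and the log2 fold change was 0.01 with a standard error of 0.051. Its exons share 59 bases with scb-1 on the opposite strand, and whether counting used strand is not given in the sources used here. bath-40 averaged 98.1 ± 3.52 CPM in TS-KO and 98.3 ± 1.45 CPM in control libraries (SD, n = 5 each). bath-42 averaged 68.0 ± 1.51 CPM in TS-KO and 66.9 ± 1.68 CPM in control libraries (SD, n = 5 each). The sum over all 90 members was 1194 ± 38.1 CPM in TS-KO and 1149 ± 13.7 CPM in control libraries (SD, n = 5 each), and the ranges of the strains overlapped. Among the classes the btb sum differed most, at 78.7 ± 9.08 CPM in TS-KO and 65.0 ± 5.20 CPM in control libraries (SD, n = 5 each), of which btb-16 and btb-17 held most.

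Between the strains, 5 members rose in pbrm-1(TS-KO) and 1 fell. These 6 are 8.96% of the 67 tested, against 7.72% of all genes tested, so the share of members called was near that of all genes. The 5 that rose stand against a background of 3.44% of genes called higher, and the 1 that fell against 4.28% called lower. The changes were small. No member differed by more than 1 on the log2 scale, and the range was from -0.55 to 0.83. At an unadjusted p under 0.05, 18 members differed, against 24.1% of all genes. The libraries of the strains did not overlap for 9 members, of which 8 were higher and 1 was lower in TS-KO, against 9.26% of all genes in either direction, 4.35% higher and 4.91% lower. Leaving out single libraries or replicate numbers gave between 0 and 6 members called. The count was 0 without replicate 6 in both strains and 1 without replicate 5, and it was 2 without replicate 7 in both strains, without TS-KO replicate 6 or without control replicate 7. It was 3 without replicate 1 or replicate 4 in both strains, without TS-KO replicate 4 or 5, or without control replicate 5 or 6. It was 4 without TS-KO replicate 1 or control replicate 4. In all genes such fits called between 408 and 1204. limma-voom, on all libraries, called 14 members and 2899 genes.

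**Figure D2:**
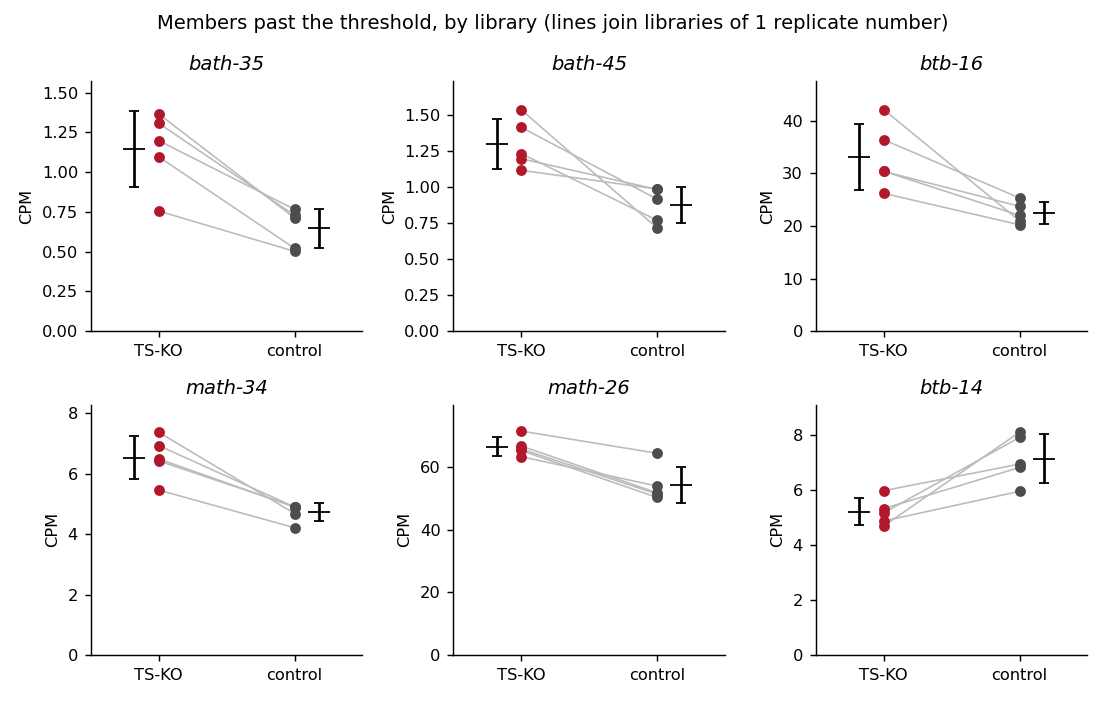
CPM in each library for the 6 genes past the threshold, with TS-KO libraries (red) left of control libraries (grey), thin lines joining libraries of 1 replicate number and black bars giving the mean ± SD of 5 libraries. In all 5 lines the TS-KO library is higher for bath-35, bath-45, btb-16, math-34 and math-26 and lower for btb-14.

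Of the math genes, math-34 and math-26 rose. math-34 (WBGene00019699, chromosome II, 1028972 to 1033665, plus strand) was at 7.38, 6.43, 6.94, 6.50 and 5.46 CPM in TS-KO replicates 1, 4, 5, 6 and 7 and at 4.68, 4.91, 4.90, 4.90 and 4.21 CPM in the control replicates. All TS-KO libraries lay above all control libraries. Its log2 fold change was 0.47 with a standard error of 0.095 and an edgeR adjusted p of 0.0132. math-26 (WBGene00018100, chromosome II, 1771647 to 1774942, plus strand) was at 71.6, 65.9, 66.8, 65.4 and 63.4 CPM in TS-KO libraries and at 64.5, 51.4, 51.8, 50.3 and 54 CPM in control libraries. Control replicate 1 was above the lowest TS-KO library, so the strains overlapped, and the 4 other control libraries lay below all TS-KO libraries. Its log2 fold change was 0.29 with a standard error of 0.069 and an edgeR adjusted p of 0.0273. It shares 20 exonic bases with math-3, which averaged 66.2 ± 3.48 CPM in TS-KO and 65.4 ± 1.93 CPM in control libraries (SD, n = 5 each) and was not called. Of 15 fits that left out a library or a replicate number, math-34 missed the threshold in 3 (without replicates 1, 5 or 6 in both strains), and math-26 in 12, with adjusted p from 0.0021 to 0.129 over all alternatives. math-26 was called without TS-KO replicate 7, without control replicate 1 and without replicate 1 in both strains.

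The math genes as a class had no common direction. Of the 21 tested, math-34 and math-26 included, 10 had a log2 fold change above 0 and 11 below 0, with a median of -0.0045. The lowest was math-44 (chromosome II, 1989310 to 1990535), at 1.54, 2.31, 2.02, 1.52 and 1.69 CPM in TS-KO libraries and 1.91, 2.3, 3.13, 2.93 and 2.36 CPM in control libraries. The ranges of the strains overlapped, and the edgeR adjusted p was 0.117. math-22, chosen after its values were seen, was lower in 5 of 5 pairs of the same number, at a mean of 8.68 ± 1.22 CPM in TS-KO and 10.9 ± 1.20 CPM in control libraries (SD, n = 5 each). Its edgeR adjusted p was 0.102, or 0.0396 with a block for replicate number.

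Of the bath genes, which encode proteins of both domains, bath-35 and bath-45 rose. bath-35 (WBGene00012196, chromosome I, 12758186 to 12759577, plus strand) had the largest log2 fold change of any member, 0.83 with a standard error of 0.198 and an edgeR adjusted p of 0.0275. It was rare, at 1.37, 1.31, 0.756, 1.20 and 1.1 CPM in TS-KO libraries and at 0.712, 0.729, 0.502, 0.766 and 0.521 CPM in control libraries. TS-KO replicate 5 was just under the highest control library, and the other TS-KO libraries lay above every control library. bath-45 (WBGene00009247, chromosome II, 13123020 to 13125189) was at 1.12, 1.42, 1.54, 1.20 and 1.23 CPM in TS-KO libraries and at 0.987, 0.917, 0.717, 0.985 and 0.770 CPM in control libraries. The strains did not overlap. Its log2 fold change was 0.57 with a standard error of 0.149 and an edgeR adjusted p of 0.0394, or 0.0718 with a block for replicate number. bath-35 missed the threshold in 9 of the 15 fits with libraries left out and bath-45 in 13. bath-45 was called only without TS-KO replicate 1 and without control replicate 1 among them. bath-35 was called without TS-KO replicates 5 or 7, without control replicates 1, 4 or 6, and without replicate 5 in both strains.

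More of the tested bath genes lay above 0 than below it, although few passed the threshold. Of 32 tested, 27 had a log2 fold change above 0, with a median of 0.19, whereas of all genes tested 50.1% were above 0 and 49.9% below it, and their median was 0.00045. The 2 bath genes called are 6.25% of those tested, under the background of 7.72%. At an unadjusted p under 0.05 there were 9 of 32 bath genes, all higher in TS-KO, against 24.1% of all genes in either direction. Of the 32, 5 had no overlap between the strains and were higher in TS-KO, against 4.35% of all genes. The number above 0 was between 26 and 30 of 32 in every alternative with all 32 genes, and 26 of 31 where at least 10 counts were required in every library. The median difference between libraries of the same number was 0.15, 0.29, 0.092, 0.13 and 0.17 on the log2 scale for replicates 1, 4, 5, 6 and 7, with 26, 29, 21, 24 and 23 of 32 genes higher in TS-KO. The bath genes share libraries and many are neighbours, so they are not independent observations. The summed germline markers were also higher in all TS-KO libraries than in all control libraries (91.8 to 107 CPM in TS-KO and 76.9 to 88.7 CPM in control libraries), both germline markers were detected in every library and 1 of 2 was called, and their part in the bath result was not tested.

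**Figure D3:**
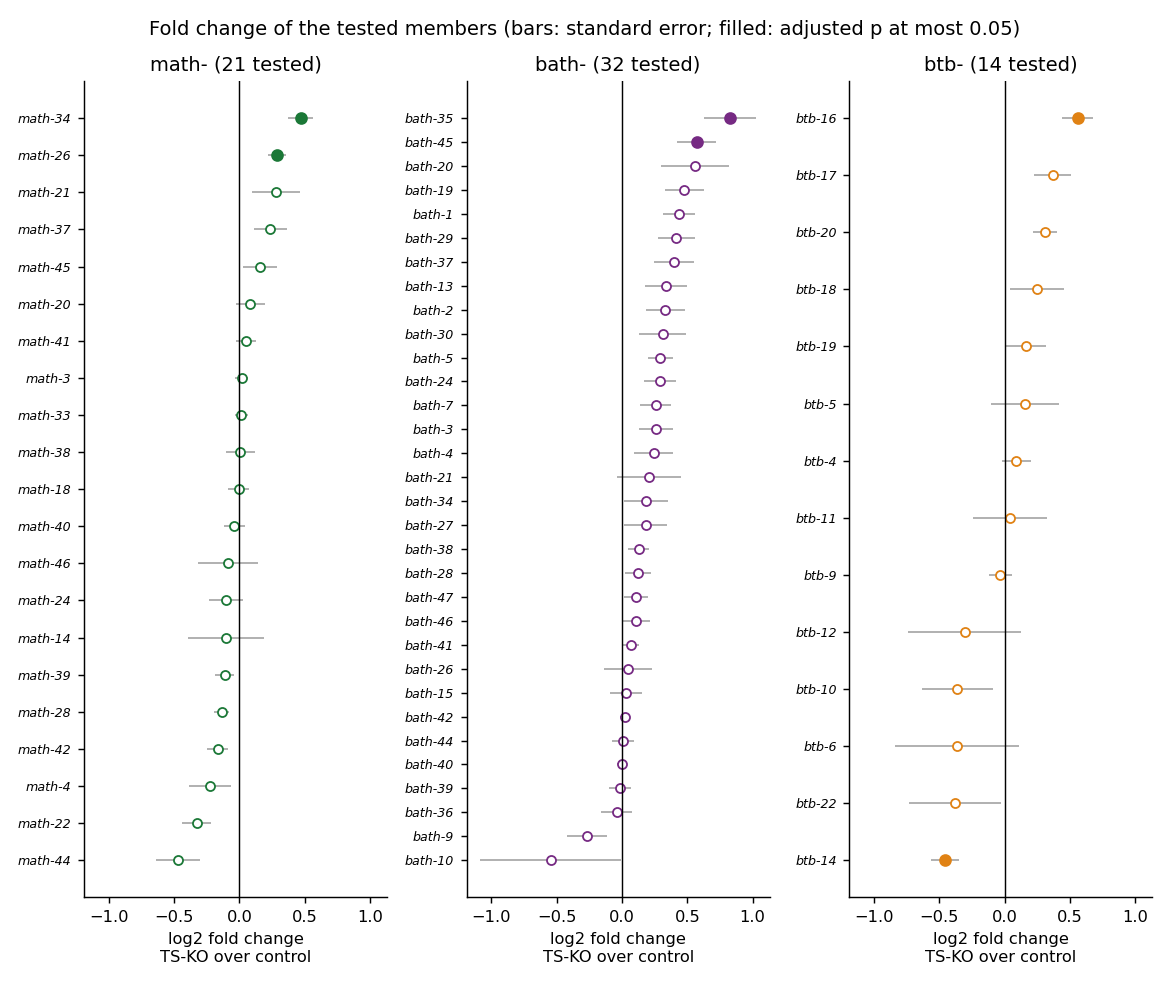
Log2 fold change of TS-KO over control with its standard error for the 21 math, 32 bath and 14 btb genes tested, ordered within each class. Filled points are the 6 genes past the threshold, and 27 of 32 bath genes but 10 of 21 math genes lie right of 0.

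The bath genes above 0 were mostly of low abundance. In a split by mean level chosen after the values were seen, 17 tested bath genes had between 1 and 5 CPM over all libraries, and 16 of them were above 0 with a median log2 fold change of 0.29. All 3272 genes in that range of levels had 47.2% above 0 and a median of -0.018. Below 1 CPM 3 of 3 bath genes were above 0 with a median of 0.56, between 5 and 20 CPM 4 of 7 were above 0 with a median of 0.046, and above 20 CPM 4 of 5 were above 0 with a median of 0.023. Among those named for their fold change, bath-19 was at 1.66, 1.24, 1.38, 1.49 and 1.78 CPM in TS-KO libraries and at 1.06, 1.06, 1.17, 1.29 and 0.861 CPM in control libraries. Control replicate 6 was above TS-KO replicate 4, so its strains overlapped by 1 library on each side, and the edgeR adjusted p was 0.076. bath-20 was at 0.526 to 1.27 CPM in TS-KO libraries and 0.436 to 0.739 CPM in control libraries, which overlap, and had a log2 fold change of 0.56 with a standard error of 0.26 and an adjusted p of 0.215 by edgeR.

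The lowest log2 fold change of a bath gene rested on a single library. bath-10 (chromosome II, 3375079 to 3376721) was at 0.695, 0.763, 0.756, 0.825 and 1.1 CPM in TS-KO libraries and at 0.62, 0.588, 3.63, 0.766 and 0.453 CPM in control libraries. Control replicate 5 alone was high, and it is also the library with the high dpy-7 level. The log2 fold change of bath-10 was -0.55 with a standard error of 0.54 and an edgeR adjusted p of 0.574. Without that library it was 0.46, with an adjusted p of 0.255 by edgeR. The part of the epidermal marker in the bath-10 value was not tested.

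The btb genes had 1 rise and 1 fall among 14 tested. btb-16 (WBGene00018195, chromosome II, 3296883 to 3298330, plus strand) was at 26.2, 36.4, 30.4, 30.3 and 42.1 CPM in TS-KO libraries and at 20.2, 25.3, 22, 23.7 and 21.0 CPM in control libraries. Every TS-KO library lay above every control library, with TS-KO replicate 7 highest. The log2 fold change was 0.56 with a standard error of 0.119 and an edgeR adjusted p of 0.0165. The call was lost in 2 of the 15 fits with libraries left out, without replicate 5 and without replicate 6 in both strains, with an adjusted p of at most 0.0597. btb-16 shares 117 exonic bases with its neighbour btb-18 on the same strand. The neighbour on its other side, btb-17 (3295405 to 3296658), chosen for its position after its values were seen, was at 17.9, 19.3, 21.9, 21.2 and 25.8 CPM in TS-KO libraries and at 11.9, 20.3, 15.3, 18.9 and 15.9 CPM in control libraries, with an adjusted p of 0.138 by edgeR. The pair of number 4 went against the other 4 pairs of btb-17.

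The gene that fell was btb-14 (WBGene00013275, chromosome II, 12383463 to 12384692, plus strand). It was at 4.87, 5.97, 5.32, 4.69 and 5.16 CPM in TS-KO libraries and at 5.95, 6.94, 6.81, 8.10 and 7.91 CPM in control libraries. TS-KO replicate 4 and control replicate 1 were nearly equal, and the strains overlapped only there. The log2 fold change was -0.46 with a standard error of 0.106 and an edgeR adjusted p of 0.0242, and 5 of 5 pairs were lower in TS-KO. The call was lost in 8 of the 15 fits with libraries left out, with adjusted p from 0.002 to 0.132 over all alternatives. It was kept without TS-KO replicates 4 or 7, without control replicates 1, 4 or 5, and without replicates 1 or 4 in both strains. Its exons share 100 bases with sre-42 on the opposite strand, and whether counting used strand is not given in the sources used here. The count filter was not passed by sre-42, at 0.0218 to 1.03 CPM in TS-KO and 0 to 0.253 CPM in control libraries. DESeq2 called sre-42 higher in TS-KO, with a log2 fold change of 2.44 and an adjusted p of 0.0363. The part of sre-42 in the btb-14 value was not tested. Among the sparse btb genes, btb-22 averaged 0.378 ± 0.155 CPM in TS-KO and 0.487 ± 0.161 CPM in control libraries (SD, n = 5 each). btb-6 averaged 0.477 ± 0.160 CPM in TS-KO and 0.623 ± 0.426 CPM in control libraries (SD, n = 5 each). Neither passed the test. Of the 14 btb genes, 8 were above 0 with a median of 0.064. This median rested on number 7: it was -0.026 without TS-KO replicate 7 and -0.064 without replicate 7 in both strains.

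**Figure D4:**
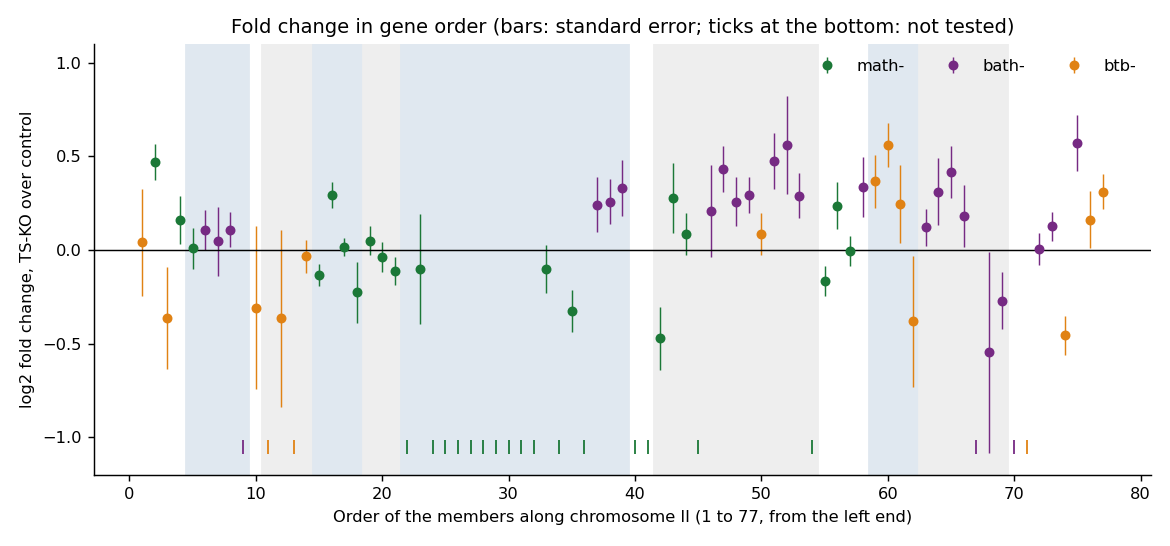
Log2 fold change with its standard error for the genes on chromosome II in their order along the chromosome (1 to 77), with colours for math, bath and btb genes and ticks at the bottom for genes not tested. Shaded spans are runs of at least 3 members less than 20000 bases apart, and shorter runs are not shaded. In the span from math-44 to math-1 the 7 bath genes all lie above 0.

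Along chromosome II, runs of neighbouring genes differed in how their fold changes fell around 0. In the run of 13 members from math-44 to math-1 (1989310 to 2046656), 11 were tested, 10 were above 0 and 0 were called by edgeR. An unadjusted p under 0.05 was reached by 5, of which math-44 was lower in TS-KO, at a log2 fold change of -0.47. Of all genes tested, 50.1% were above 0, 7.72% were called and 24.1% had an unadjusted p under 0.05. All 7 bath genes in this run lay between 0.21 and 0.56. The lowest edgeR adjusted p among them was 0.0543, for bath-1 (2027612 to 2028812, minus strand), which was at 2.14, 2.81, 2.78, 2.37 and 2.60 CPM in TS-KO libraries and at 2.0, 1.53, 2.1, 1.89 and 1.88 CPM in control libraries. All TS-KO libraries of bath-1 lay above all control libraries. In this run DESeq2 called bath-1, and limma-voom called bath-1, bath-19 and math-44. Close to bath-1, bath-5 was at 2.97 to 3.18 CPM in TS-KO libraries and 2.25 to 2.87 CPM in control libraries, again with no overlap and with an adjusted p of 0.0903 by edgeR. In the run of 7 bath genes from bath-28 to bath-9 (3343731 to 3378834), 4 of 6 tested were above 0, and bath-29 led with a log2 fold change of 0.42 and an edgeR adjusted p of 0.0975. In the run of math-28, math-26, math-3 and math-4 (1763372 to 1782574), 2 were above 0 and 2 below. Both signs also occurred from math-15 to bath-2 (3 above and 3 below 0), from math-41 to math-39 (1 above and 2 below) and from btb-17 to btb-22 (3 above and 1 below). From math-38 to bath-33 all 4 tested were above 0, and from btb-7 to btb-9 both tested were below it. These runs and the genes named from them were chosen after the values were seen.

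Neighbours also had a higher median correlation over the 10 libraries than other members. Of 2211 pairs of tested members, 41 lay within 5000 bases of each other, and Pearson's r of their log2 CPM had a median of 0.40, against 0.062 for the other pairs. These values describe pairs that share the same 10 libraries, both strains and all replicate numbers, and some pairs share exonic bases, so no test was made. The members most like btb-16 were btb-20 (r = 0.84), its neighbour btb-17 (r = 0.84) and bath-5 (r = 0.82) over the 10 libraries. The members most like math-34 were bath-5 (r = 0.79), bath-2 (r = 0.79) and bath-45 (r = 0.78) over the same libraries. For the abundant math-33 they were bath-44 (r = 0.93), bath-38 (r = 0.86) and math-21 (r = 0.82) over the 10 libraries, although math-33 did not differ between the strains beyond its spread.

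**Figure D5:**
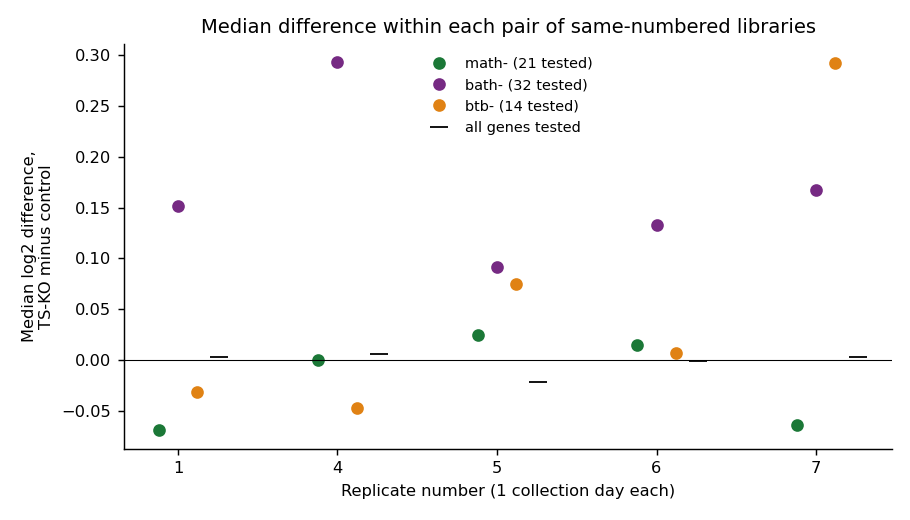
Median log2 difference of TS-KO minus control within each pair of libraries of 1 replicate number, for the tested math, bath and btb genes and for all genes tested (black dashes). The bath median is above 0 for all 5 numbers, between 0.092 and 0.29, and the btb median is largest for number 7, at 0.29.

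Libraries of 1 replicate number were collected in parallel, on a day of their own, and members were compared between the numbers in a fit that also held strain. edgeR's quasi-likelihood test of replicate number called 0 of the 67 members and 0 of 16817 genes, a background of 0%. At an unadjusted p under 0.05 there were 12 members and 2768 genes. With no filter on low counts edgeR called 3 members (btb-10, bath-26 and btb-2) and 988 genes. DESeq2's likelihood ratio test called 3 members (bath-26, bath-47 and math-4) and 897 genes, and limma-voom called 0 members and 2 genes. With 2 libraries per number, the spread within a number rests on few libraries.

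The members with the smallest p for replicate number were picked for differences between numbers that the strains share. Their likeness in the 2 strains follows from that choice, and none was called in the edgeR fit with the filter. btb-10 (chromosome II, 1059662 to 1060802), with an edgeR p of 0.00236 (adjusted p of 0.25), was at 2.38, 1.29, 1.21, 1.22 and 1.17 CPM in TS-KO replicates 1, 4, 5, 6 and 7 and at 3.08, 1.36, 1.86, 1.42 and 1.61 CPM in control replicates. Replicate 1 was the highest library of each strain. bath-47 was at 72.2, 90.8, 72.2, 76.4 and 96.9 CPM in TS-KO libraries and at 68.2, 81.5, 70.4, 78.3 and 80.6 CPM in control libraries, with replicates 4 and 7 highest in both strains. It shares 22 exonic bases with bath-33 on the opposite strand, which was below the count filter. math-24 was lowest in replicate 1 of both strains, at 13.9 CPM in the TS-KO library and 14.1 CPM in the control library, while its other libraries held 15.1 to 20.8 CPM in TS-KO and 18.4 to 20.0 CPM in control. math-41, named for its level and not for its p, ran the other way. It was highest in replicate 1, at 103 CPM in the TS-KO library and 112 CPM in the control library. bath-30 averaged 2.91 CPM over the 2 libraries of number 5 and 1.90 CPM over those of number 7, and bath-36 averaged 13.5 CPM over those of number 6 and 9.61 CPM over those of number 1. For these members, math-41 included, the largest mean over a number was 1.24 to 2.06 times the smallest, against a median of 1.28 times over the tested members. Control replicate 1 held the lowest value of the 10 libraries in 20 of 67 members (29.9%), against 15.2% of all genes.

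The genes of the ligase that BTB proteins join were close to equal in the strains. Of 17 genes for CUL-3, its partner RBX-1, the neddylation enzymes that activate cullins, the COP9 signalosome that reverses this, and MEL-26 with its target katanin, 17 were tested and 0 were called by edgeR, with 3 at an unadjusted p under 0.05. Of all genes tested, 7.72% were called and 24.1% had an unadjusted p under 0.05, and the counts in this list were near these shares. The log2 fold changes of the 17 genes lay between -0.15 and 0.16, and the median was 0.017. DESeq2 called 2 of them, mel-26 at an adjusted p of 0.0191 and csn-1 at 0.0297, against 11.7% of all genes. limma-voom called 3. With a block for replicate number edgeR called 2, mel-26 and csn-2, against 10.9% of all genes. csn-1, for a subunit of the COP9 signalosome and named after its values were seen, averaged 37.7 CPM in TS-KO and 41.7 CPM in control libraries without overlap, with an edgeR adjusted p of 0.0671. cul-3 itself averaged 91.4 CPM in TS-KO and 90.9 CPM in control libraries. mel-26 averaged 79.2 CPM in TS-KO and 71.1 CPM in control libraries. Its log2 fold change was 0.15 with a standard error of 0.044 and an edgeR adjusted p of 0.0563, or 0.0414 with the block. With DESeq2, the study's authors reported mel-26 as differentially expressed and higher in TS-KO. Among 11 genes for other MATH or BTB proteins, mel-26 and several kelch proteins among them, 0 were called by edgeR. An unadjusted p under 0.05 was reached by 2. These counts stand against the same 7.72% and 24.1% of all genes. DESeq2 called 1 and edgeR with the block called 1. Both times the gene was mel-26, already counted among the 17 genes above. limma-voom called 3.

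A second list held 14 genes linked to the intracellular pathogen response. This program of C. elegans includes the cullin CUL-6 and its F-box and Skp partners, which form another kind of ubiquitin ligase. Whether each listed gene is a readout of the program was not checked. Of 12 tested, 1 was above 0 and 11 were below 0 with a median log2 fold change of -0.11, and 1 was called by edgeR. The gene above 0 was pals-22, at 0.17, and pals-5 and F26F2.4 were not tested. Of all genes tested, 49.9% were below 0 and 7.72% were called, so the count called in this list is near that of all genes. The gene called was pals-6, which fell by 1.05 on the log2 scale, with a mean of 1.82 CPM in TS-KO and 3.78 CPM in control libraries, a standard error of 0.199 and an adjusted p of 0.00908 by edgeR. The call of pals-6 was lost without replicate 5 and without replicate 6 in both strains, among 15 fits with libraries left out. skr-5 was also called with the replicate block, at an adjusted p of 0.0157 by edgeR.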

How the data were processed

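Polyadenylated RNA of 10 libraries was sequenced. The authors mapped trimmed reads with STAR 2.5.2b and counted uniquely mapped reads in exons with featureCounts of Subread 1.5.2, and the deposited values are raw counts per gene. The methods write the assembly as WBcel325, taken here as WBcel235. All 10 columns were used. Gene types, positions and exon lengths came from the Ensembl annotation.

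The strains were compared in R 4.3.3 with edgeR 4.0.16 (quasi-likelihood test, filterByExpr, TMM, no covariate, Benjamini-Hochberg adjustment over all genes tested, adjusted p of at most 0.05). On simulated counts with known changes, its estimates and its share of false calls were checked. Some genes changed by 1 on the log2 scale, more than any tested member differed, were missed. A gene that was not called can still differ between the strains. CPM are counts per 1000000 counts after TMM, log values used a prior count of 2, and standard errors were derived from the F statistic and are approximate. Replicate number was tested as 4 coefficients in a fit with strain. DESeq2 1.42.0, limma-voom (limma 3.58.1), RLE factors, no filter, a minimum of 10 counts in each library, a block for replicate number, and fits without each library or number were alternatives.

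The strains were collected in parallel on different days, so same-numbered libraries form pairs. The pairs entered only the alternative with a block and the differences given within pairs, and the p-values printed without mention of a block come from the fit without it. Their deviations from the strain means correlated at 0.505, 0.283, 0.124, -0.0514 and 0.351 for numbers 1, 4, 5, 6 and 7, against a median of -0.0972 between different numbers. No library was a duplicate of another, with chi-square ratios of 3.24 to 39.1 over 20 pairs. Strain p-values from the fit without a block rest on the spread of libraries within a strain, which includes the spread between collection days. Those with a block, and those for replicate number, rest on the spread left after strain and number.

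Named genes were the members called, the 5 with the highest mean CPM, the 5 largest log2 fold changes in each direction, the 5 smallest p for replicate number, math-33, bath-42, cul-3, mel-26 and list genes called. Others were named after their values were seen. The members and lists were chosen with earlier results of these data known. Protein and DNA sequences were not used here.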

Additional observations from a re-analysis of the deposited data

Results flagged for a closer look

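For 25 named genes (the named members with cul-3, mel-26 and pals-6), 50 groups of 5 libraries were checked for a library far from the others of its strain, and 5 had one. Chance would flag about 1 in 20 groups of unselected genes with normally distributed values. Several of these genes were picked for extreme values, so the 5 flags cannot be set against that rate. bath-10 was at 3.63 CPM in control replicate 5, where the next library held 0.766 CPM. btb-10 was at 2.38 CPM in TS-KO replicate 1, where the next held 1.29 CPM. The 3 others were all in control replicate 1. There math-26 was at 64.5 CPM against 54 CPM in the next control library, math-41 was at 112 CPM against 90.7 CPM, and math-24 was low at 14.1 CPM against 18.4 CPM.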

How the results depend on the processing

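The 6 members called were the same under RLE factors and with at least 10 counts in every library, and all 6 were among the 7 called by DESeq2 and the 14 called by limma-voom. Without a filter bath-45 was lost. With the replicate number as a block 6 members were called, 5 of them shared, and the counts were 1826 for all genes, 2 for the CUL-3 list, 1 for other MATH or BTB genes and 2 for the pathogen response list. DESeq2 called 1958 genes, and 2, 1 and 2 in these lists. limma-voom called 2899 genes, and 3, 3 and 2 in these lists. The median log2 fold change of the 67 tested members was 0.088 in the main fit and 0.11 with at least 10 counts in every library. Without 1 library or number, members called ranged between 0 and 6, all genes called between 408 and 1204, the CUL-3 list between 0 and 1, the other MATH or BTB genes between 0 and 1, the pathogen response list between 0 and 2, and the median between 0.065 and 0.14. Replicate number gave 3 members and 897 genes with DESeq2, 3 and 988 without a filter, and 0 and 2 with limma-voom. Causes of these differences were not tested.

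Among the 25 genes followed one by one through the alternatives, the log2 fold changes of 6 uncalled genes changed sign. Under limma-voom math-33 was -0.033, bath-40 was 0.019, bath-47 was -0.021 and bath-10 was 0.093. Over the fits without 1 library or number, math-33 lay between -0.013 and 0.053, bath-40 between -0.015 and 0.019, bath-10 between -0.87 and 0.49, bath-36 between -0.10 and 0.046, and cul-3 between -0.0078 and 0.044. Members below the filter, with at most 100 counts in all, were too sparse for a comparison.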
